A study of Mus musculus with 4 samples.

Results

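The genes that write, copy and remove DNA methylation were followed across 4 mouse arrays: the maintenance genes Dnmt1 and Uhrf1, the de novo genes Dnmt3a, Dnmt3b and Dnmt3l, the TET dioxygenases Tet1, Tet2 and Tet3, and the glycosylase gene Tdg. Members were the probe sets that the platform annotation assigns to 1 of these symbols alone, and 8 of 23521 such probe sets qualified, 1 for each gene except Tdg. Tdg was covered by probe sets shared with its pseudogenes and is described apart from the others.

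Each array held total RNA of 1 culture, with no replicate of any condition. The day 6 arrays hold whole cultures of reprogrammable embryonic fibroblasts, in which doxycycline induces the reprogramming factors, taken at day 6 of that treatment. In 1 of them Firefly, the gene of an insect luciferase that mouse cells lack, was the knockdown target and the culture served as control, and in the other the target was Sumo2, a small ubiquitin-like modifier. The 2 other arrays hold induced pluripotent stem cell (iPSC) clones obtained from Sumo2 knockdown fibroblasts and labelled 38 h and 10 day, without a statement of what that time counts. All carry the strain label Black6-129X1/SvJ and pooled male and female cells, and the protocols give serum-containing embryonic stem cell medium, ascorbic acid and doxycycline for all 4 samples. Neither the number of clones behind each iPSC array nor any control iPSC line is given in the labels, so the iPSC arrays differ from the Firefly culture both in cell state and in knockdown history.

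In mammals most methylation sits on cytosines followed by guanine (CpG). DNMT1 copies it onto the new strand after replication, guided by UHRF1, which binds hemimethylated sites. DNMT3A and DNMT3B place methylation anew, and DNMT3L, which has no catalytic activity of its own, assists them in germ cells and early embryos. TET enzymes oxidise 5-methylcytosine in reactions that use iron and 2-oxoglutarate and that ascorbate enhances, and TDG cuts out the more oxidised bases for repair. Embryonic stem cells are known for high TET1 and TET2, and both writers and erasers are active during reprogramming.

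The promoters of the genes that moved most, and of the TET trio that moved in opposite directions, are shown because the enzymes act on CpG and the promoters of the family themselves differ in it. Each line gives the 250 bases before an annotated start, 5′ to 3′, from RefSeq on GRCm38.p6, with CpG in capitals; for Dnmt3l the start with the most CpG is shown.
Dnmt3b, chr2:153649199-153649448, plus strand: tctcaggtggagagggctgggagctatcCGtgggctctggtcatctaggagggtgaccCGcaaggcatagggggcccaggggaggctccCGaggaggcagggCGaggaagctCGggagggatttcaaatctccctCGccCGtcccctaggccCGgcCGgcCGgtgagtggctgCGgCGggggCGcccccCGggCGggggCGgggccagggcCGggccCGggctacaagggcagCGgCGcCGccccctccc
Dnmt3l, chr10:78042037-78042286, plus strand: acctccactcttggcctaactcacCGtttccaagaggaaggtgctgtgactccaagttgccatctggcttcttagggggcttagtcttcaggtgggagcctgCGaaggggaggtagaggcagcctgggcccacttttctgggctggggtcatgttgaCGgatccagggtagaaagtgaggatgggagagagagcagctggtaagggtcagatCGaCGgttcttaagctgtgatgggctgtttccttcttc
Tet1, chr10:62887325-62887574, minus strand: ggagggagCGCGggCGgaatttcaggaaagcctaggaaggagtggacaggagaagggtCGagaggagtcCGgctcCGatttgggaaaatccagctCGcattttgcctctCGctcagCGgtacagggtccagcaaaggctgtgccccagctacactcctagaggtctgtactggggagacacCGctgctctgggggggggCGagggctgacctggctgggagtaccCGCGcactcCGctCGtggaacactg
Tet2, chr3:133544391-133544640, minus strand: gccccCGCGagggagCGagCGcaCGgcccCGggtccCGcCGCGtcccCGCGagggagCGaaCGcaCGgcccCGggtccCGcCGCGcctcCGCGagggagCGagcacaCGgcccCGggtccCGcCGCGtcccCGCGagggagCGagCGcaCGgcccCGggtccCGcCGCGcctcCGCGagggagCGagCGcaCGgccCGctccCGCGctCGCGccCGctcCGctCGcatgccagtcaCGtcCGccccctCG
Tet3, chr6:83441679-83441928, minus strand: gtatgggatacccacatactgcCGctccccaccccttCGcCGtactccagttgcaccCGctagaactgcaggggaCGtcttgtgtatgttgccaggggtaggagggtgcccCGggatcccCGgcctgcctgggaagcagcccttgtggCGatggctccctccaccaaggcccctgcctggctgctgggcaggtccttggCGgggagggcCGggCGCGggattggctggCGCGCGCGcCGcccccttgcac

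In these stretches Tet2 carries 51 CpG and Dnmt3l 5. Counted over the whole 300-base window (250 bases before and 50 after the start), Tet2 had 57 CpG, and 0.152% of all 32851 RefSeq promoter windows had at least as many. Dnmt3b had 30, Tet3 22 and Tet1 17, against a median of 7 over all windows. The 3 annotated starts of Dnmt3l had 6, 4 and 3, all below that median. Dnmt3a had 46 and 47 at neighbouring starts and 18 at the third, Uhrf1 33 and 12, Tdg 26, and Dnmt1 33, 12 and 2 at its 3 starts. Which start was in use, and whether these CpG were methylated, was not measured.

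**Figure D1:**
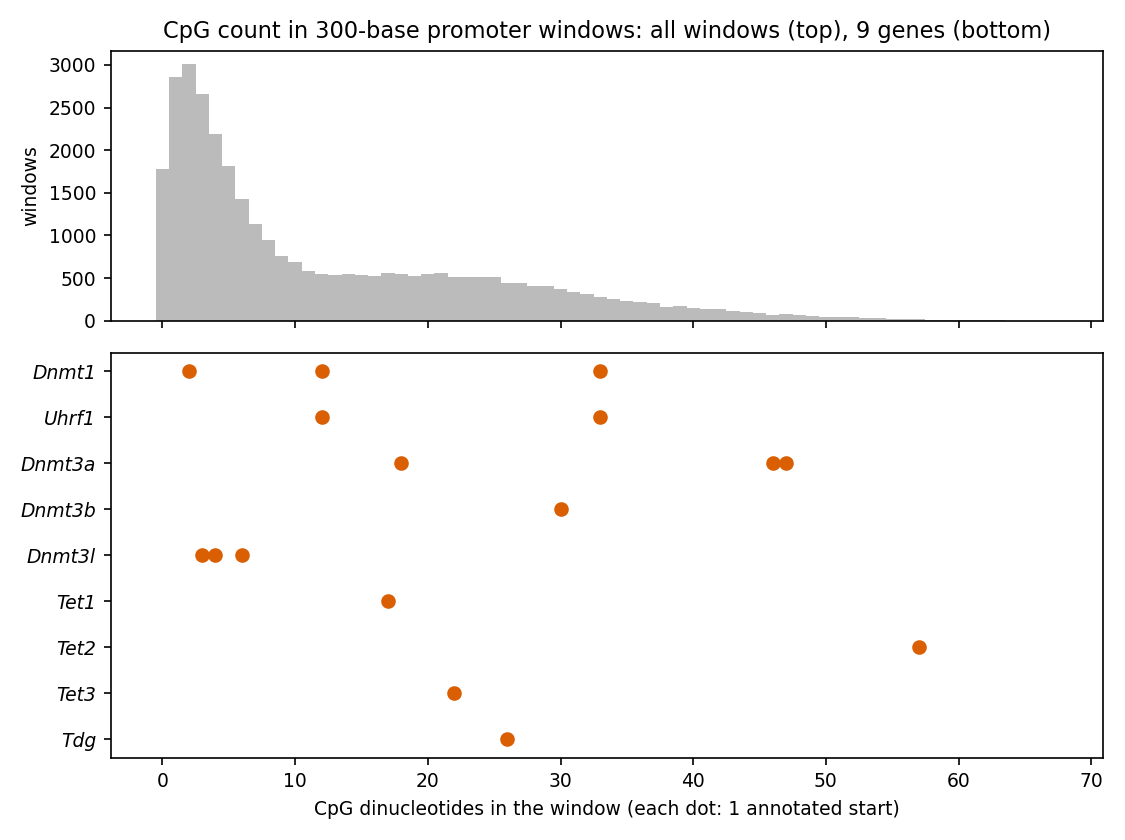
CpG dinucleotides per 300-base RefSeq promoter window (x axis); the upper panel counts all 32851 windows (y axis, number of windows), and each dot of the lower panel is 1 annotated start of a named gene. Tet2, at 57, lies at the far right, and the starts of Dnmt3l, at 6, 4 and 3, lie among the CpG-poor windows.

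Short motifs were searched on both strands of the 16 windows of these 9 genes. The GC box GGGCGG was present in 12 of 16, in every gene but Tdg, against 35.7% of all windows. The CCAAT box CCAAT was in 6 of 16, in Dnmt1, Tet3, Uhrf1 and Tdg, against 37.4%. The octamer ATGCAAAT was in 0 of 16 (1.74% of all windows). Of the E2F forms, TTTCCCGC was in 0 of 16 (1.07%) and TTTGGCGC in 1, a Dnmt1 start (0.514%). These are letter matches only.

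On these arrays the values are log2 expression, so a difference of 1 is 2-fold. The measuring floor is the median of all single-symbol probe sets on an array, 6.64 to 6.67 here, and a gene was measured in a comparison if it reached the floor on at least 1 array compared. All members but Dnmt3l were above the floor on every array, and Dnmt3l was below it in both day 6 cultures, so it was measured only through the iPSC lines. Levels are set side by side only within a gene, because probe sets differ in brightness.

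The knockdown and the cell states were checked first. Sumo2 read 10.65 with Firefly knockdown and 10.56 in the culture labelled Sumo2 knockdown, 93.8% of the control, so the transcript does not show the knockdown and directions drawn from that culture rest on its label. Summed linear levels of the 12 pluripotency markers chosen for this check were 2327 in the Firefly culture, 6082 in the culture labelled Sumo2 knockdown, 31967 in the 38 h line and 33479 in the 10 day line; Dppa5a was below the floor on every array. The 12 fibroblast markers summed to 25808, 21779, 15062 and 13147 in that order, with Lum below the floor throughout, a sum in which the brightest probe set, Vim, weighs most. Of 11 measured fibroblast markers 3 fell from day 6 to iPSC (Thy1, Prrx1 and Col6a1), Postn was at least 4.01-fold higher in the lines counted from the floor, Fbln2 rose by 0.70 without reaching 2-fold, and Col1a1 differed by 0.07. Of the 6 blood and macrophage markers 4 were below the floor on every array, Ptprc, Csf1r, Adgre1 and Cd14 (sums 687 to 1455). The 2 measured, Cd68 and Lyz2, were higher in the lines by 1.04 and 1.24. Kdr and Emcn of the 5 endothelial markers were also below the floor throughout (1109 to 1721). Pecam1, below the floor at day 6, was at least 9.19-fold higher in the lines, Tek was lower (-2.44), and Cdh5 reached the floor only in the culture labelled Sumo2 knockdown. Primitive endoderm markers had mean log2 levels of 7.45, 7.30, 7.67 and 6.84 in that order; Dab2 went from 11.07 to 10.68, 9.69 and 8.05, whereas Gata6 was at 6.49, 6.39, 8.41 and 7.12, below the floor at day 6 and highest in the 38 h line. Trophoblast markers summed to 532, 729.9, 960.4 and 1536 in the same order of arrays, with Cdx2 and Elf5 below the floor throughout. In bulk cultures fewer cells of a type and less RNA per cell cannot be told apart.

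**Figure D2:**
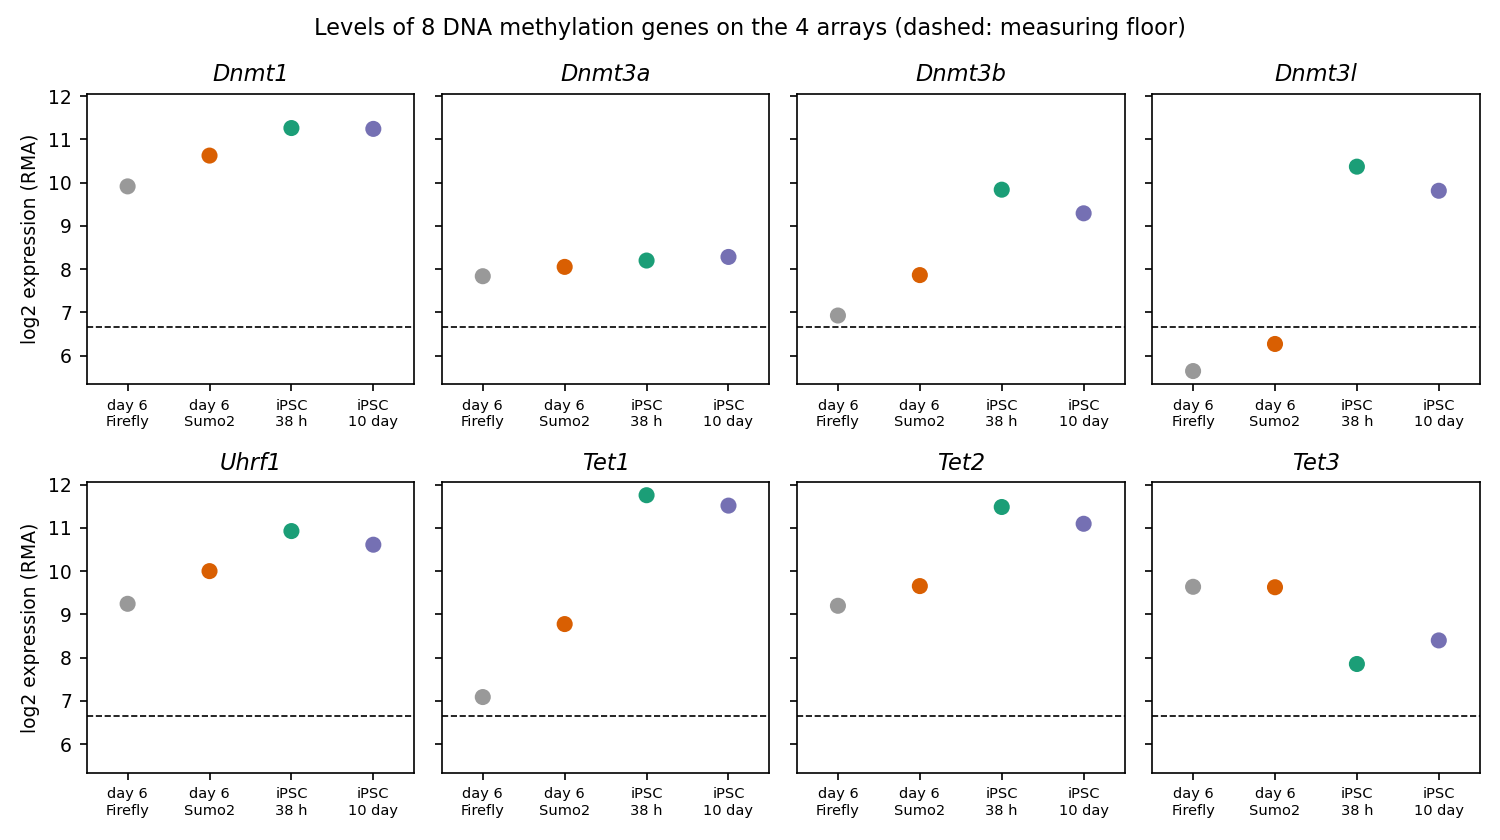
Log2 RMA expression (y axis) of the 8 members on each of the 4 arrays (x axis), 1 dot per array, with no replicates; the dashed line is the measuring floor, and levels are comparable within a panel only. Tet1 climbs from 7.09 in the Firefly culture to 11.75 in the 38 h line, Tet3 runs the other way, and Dnmt3l lies below the floor in both day 6 cultures.

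Among the maintenance genes, Dnmt1 was at 9.91 in the Firefly culture, 10.62 in the culture labelled Sumo2 knockdown, 11.26 in the 38 h line and 11.24 in the 10 day line. The iPSC lines were nearly equal and above both day 6 cultures. Uhrf1, whose product brings DNMT1 to newly replicated DNA, was at 9.24, 10.00, 10.93 and 10.61 in that order. It too was lowest in the control and highest in the 38 h line.

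The de novo genes parted. Dnmt3a was nearly flat, at 7.84, 8.05, 8.20 and 8.28. Dnmt3b was at 6.93 in the Firefly culture, just above the floor, at 7.86 in the culture labelled Sumo2 knockdown, and at 9.84 and 9.29 in the 38 h and 10 day lines. The cofactor gene Dnmt3l read 5.64 and 6.27 in the day 6 cultures, both below the floor, and 10.37 and 9.81 in the lines. The day 6 values of Dnmt3l have no order, and both lines stood far above them.

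The TET genes did not move together. Tet1 was at 7.09 in the Firefly culture, 8.78 in the culture labelled Sumo2 knockdown, 11.75 in the 38 h line and 11.51 in the 10 day line. It had the widest span of values of any member measured on all 4 arrays, with a clear step between the day 6 cultures. Tet2 was at 9.20, 9.65, 11.48 and 11.09, with the main step between day 6 and iPSC. Tet3, the TET gene of oocytes and many differentiated cells, was at 9.64 and 9.63 at day 6, level with each other, and at 7.85 and 8.40 in the lines. Both lines were below both day 6 cultures, the 38 h line lowest.

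The Tdg signal can be read only together with its pseudogenes. The probe set shared with Tdg-ps2 was at 8.35 in the Firefly culture, 8.94 in the culture labelled Sumo2 knockdown, 9.87 in the 38 h line and 9.004 in the 10 day line. The 38 h line was highest, and the 10 day line was close to the culture labelled Sumo2 knockdown. The probe set shared with Tdg-ps stayed at 5.84, 5.58, 5.598 and 6.09, below the floor on every array. Which copy gave the signal is uncertain, and no call was made for Tdg.

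The day 6 comparison asked what differed in the culture labelled Sumo2 knockdown from the Firefly control. Of 7 measured members 6 were higher in it, as were 53.7% of all measured genes, and Tet3 was level with the control (log2 difference -0.01). Tet1 alone reached 2-fold, at 3.22-fold higher, where 0.945% of 11740 measured genes were 2-fold higher and 0.23% 2-fold lower. Dnmt3b followed at 1.91-fold, Uhrf1 at 1.69-fold and Dnmt1 at 1.64-fold, so 4 of 7 members were at least 1.5-fold higher and 0 lower, against 4.09% and 2.81% of all measured genes. Tet2 was 1.37-fold and Dnmt3a 1.16-fold higher, and Dnmt3l could not be compared. Read against all genes, 0.179% had a difference as high as that of Tet1, 1.13% as that of Dnmt3b, 1.98% as that of Uhrf1, 2.35% as that of Dnmt1, 7.78% as that of Tet2 and 25.4% as that of Dnmt3a. The median over the 7 was 0.71, beside 0.02 over all measured genes. With 1 array against 1 there is no test and no replicate check.

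Pluripotency, epithelial and S phase genes were also higher in that culture. Of all measured genes 53.7% were higher in it, 4.09% at least 1.5-fold and 0.945% at least 2-fold. There, all 7 measured pluripotency markers had higher values, 5 of them at least 2-fold, with a median log2 difference of 2.31. Tdgf1 and Esrrb among them were below the floor in the Firefly culture and measured only through the other, so their direction is no support. Sox2, Zfp42, Dppa5a, Tcl1 and Dppa4 were below the floor in both day 6 cultures. All 10 measured fibroblast markers were lower (median -0.50), but Vim (-0.03) and Prrx1 (-0.09) were nearly level with the control. Of the 10, 2 were at least 1.5-fold lower, beside 2.81% of all measured genes. Of 7 measured epithelial markers 6 were higher, 5 of them at least 2-fold (median 1.65), with the adhesion genes Epcam at 6.40-fold and Cdh1 at 4.52-fold. Dsp, 1 of those 5, was likewise below the floor in the Firefly culture, so its direction is no support. The 8 epithelial markers summed to 1711, 5000, 8852 and 10058 from Firefly to the 10 day line. Of 16 measured S phase genes 15 were higher, 8 of them at least 1.5-fold and 0 by 2-fold (median 0.58). Largest among them were Mcm3 (0.76), a replication helicase gene, Cdc6 (0.71), which helps load that helicase, and Chaf1a (0.66), a chromatin assembly factor. In size they were close to Uhrf1 (0.76) and Dnmt1 (0.71). The part of any of these groups in the differences of the members was not tested.

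**Figure D3:**
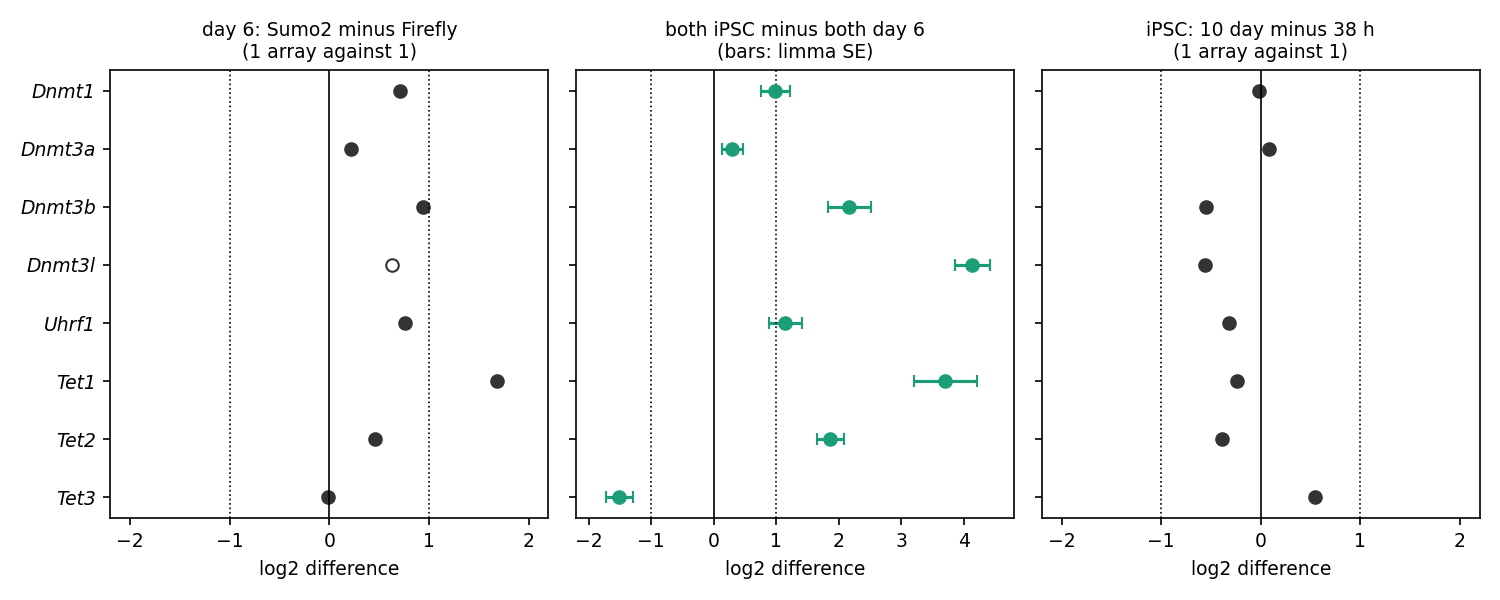
Log2 differences (x axes) of the 8 members in the 3 comparisons; the dotted lines mark 2-fold, the bars of the middle panel are limma standard errors, and the open circle is Dnmt3l, below the floor in both day 6 cultures. Only Tet1 passes 2-fold at day 6, the iPSC panel spreads from Tet3 at -1.51 to Dnmt3l at 4.13, and the iPSC lines differ by less than 2-fold throughout.

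The comparison of both iPSC lines with both day 6 cultures asked which members accompany the pluripotent state. It was tested with limma over 12735 measured genes, and a gene was called past 2-fold with p below 0.05 after Benjamini-Hochberg adjustment. Dnmt3l, Tet1, Dnmt3b, Tet2 and Uhrf1 rose and Tet3 fell, 5 and 1 of 8, where 14.3% of all measured genes rose and 9.12% fell by the same rule. Dnmt3l was measured only because it was high in the lines and had to differ, so its passing is no support; of the other 7 members, 4 rose. By adjusted p alone Dnmt1 also rose, giving 6 up and 1 down, against 29% and 17.8% of genes, and Dnmt3a did not pass. Knockdown and line differences are part of the spread behind these tests, which is therefore not that of replicates.

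Dnmt3l rose at least 10.8-fold counted from the floor (4.13 as read on the log2 scale, SE 0.28, limma adjusted p = 0.000304), a test on day 6 readings below the floor. Tet1 rose 13.0-fold (3.70, SE 0.50, limma adjusted p = 0.00223), with the 4 pairs of iPSC and day 6 arrays apart by 2.74 to 4.67. Dnmt3b rose 4.50-fold (2.17, SE 0.34, limma adjusted p = 0.00371) and Tet2 3.64-fold (1.86, SE 0.21, limma adjusted p = 0.0013). For each of these both lines lay above both day 6 cultures, as they did for 46.8% of all measured genes.

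The maintenance genes sat at the edge of the 2-fold rule. Uhrf1 rose 2.21-fold (1.15, SE 0.27, limma adjusted p = 0.0146), but the call ended without the Firefly culture (0.77, limma adjusted p = 0.0526), without the 38 h line (0.99) and after cyclic loess scaling (0.97). Dnmt1 differed 1.98-fold (0.98, SE 0.23, limma adjusted p = 0.0155) and passed 2-fold only without the culture labelled Sumo2 knockdown (1.34). Dnmt3a differed by 0.30 (SE 0.17, limma adjusted p = 0.185), which does not show that it was equal. Tet3 fell 2.84-fold (-1.51, SE 0.22, limma adjusted p = 0.00277), with differences of -1.79 to -1.23 over the 4 pairs of arrays. Both lines were below both day 6 cultures, as they were for 32.7% of genes. Its fall and the rise of Dnmt3b, Tet1 and Tet2 held their calls after cyclic loess and stayed past 2-fold without any 1 array. The rise of Dnmt3l did so too, but it was measured only through the lines, so this is no support.

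Over the 8 members, which include Dnmt3l that was measured only through the lines, the median difference was 1.504, beside 0.15 over all measured genes. Cyclic loess, another scaling, moved the latter to 0.03; under it all 8 members kept their direction, with Dnmt3l at 3.98, Tet1 at 3.52, Dnmt3b at 1.99, Tet2 at 1.69, Dnmt1 at 0.81, Dnmt3a at 0.14 and Tet3 at -1.70.

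Related members were compared by the change of the one relative to the other, array by array, with the Firefly culture set to 0. Dnmt3b gained on Dnmt3a by 0.72 in the culture labelled Sumo2 knockdown and by 2.55 and 1.92 in the 38 h and 10 day lines. Tet1 gained on Tet3 by 1.70, 6.45 and 5.67, and Tet2 on Tet3 by 0.47, 4.07 and 3.14. Tet1 gained on Tet2 by 1.23, 2.38 and 2.53, and Dnmt3b on Dnmt1 by 0.22, 1.56 and 1.03. In each of these 5 pairs both lines stood apart from both day 6 cultures. However, an exact two-sided permutation test of 2 arrays against 2 cannot go below p = 0.333, which is what each gave. Benjamini-Hochberg adjustment would leave 5 such equal values at 0.333. These relative changes share the arrays and members of the values above.

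Between the iPSC lines all 8 members differed by less than 1.5-fold, as did most measured genes. In the 10 day line 6.44% of genes were 1.5-fold higher and 4.11% 1.5-fold lower. There, 2.19% of 11754 measured genes were 2-fold higher and 1.03% 2-fold lower. Dnmt3l (1.47-fold), Dnmt3b and Tet3 (1.46-fold each) were just under 1.5-fold. Of the 8, 6 were lower in the 10 day line, as were 52.5% of genes. In the 10 day line Dnmt3l was at 68.0% of the 38 h level, Dnmt3b at 68.5%, Tet2 at 76.4%, Uhrf1 at 80.4%, Tet1 at 84.7% and Dnmt1 at 98.7%. Dnmt3a was at 106% and Tet3 at 146%. The 6 members that were lower in the 10 day line included every member called as rising from day 6 to iPSC. Tet3, which fell, was higher in it. Of those calls, that of Dnmt3l is no support. The share of all rising genes that were lower in the 10 day line was not counted. The values of Dnmt3l and Dnmt3b were among the lower ones of all genes (4.53% and 4.79% of genes were as low), and that of Tet3 among the higher (7.13% as high). With 1 array a line, a difference between lines and one between 2 arrays of the same line cannot be told apart. An order of Firefly, culture labelled Sumo2 knockdown, 10 day and 38 h from low to high, noticed after the values were seen, was read in 6 members and in 17.7% of all measured genes, where the day 6 step of Dnmt3l, below the floor, has no order.

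The partners of these enzymes were followed with lists. Methylation partners recruit, target or oppose the enzymes. Of 18 measured, 14 rose from day 6 to iPSC by adjusted p and 0 fell (median 0.73). By that rule 29% of all measured genes rose and 17.8% fell. With the 2-fold rule added 5 of the 18 rose, beside 14.3% of all measured genes. Fewer did so without the Firefly culture. Prdm14 and Dppa3, both among the 5 past 2-fold, were below the floor in both day 6 cultures. They were measured only through the lines, so their passing is no support. Prdm14, which represses de novo methyltransferase genes in embryonic stem cells, was at least 4.75-fold higher in the lines counted from the floor, with 5.61 and 6.10 at day 6 and 8.20 and 9.61 in the 38 h and 10 day lines. It was higher in the 10 day line, in which Dnmt3b and Dnmt3l were lower, whereas all 3 genes were higher in both lines than at day 6. A link between them was not tested. Hells, a chromatin remodeller needed for methylation, rose by 2.34 (SE 0.33, limma adjusted p = 0.00249) and was the only partner 2-fold higher at day 6 in the culture labelled Sumo2 knockdown (1.02; under 2-fold after cyclic loess). Zfp57, which keeps methylation at imprinted loci, rose by 1.37, and Dppa3, which shields the egg genome from TET3, exceeded the floor-based day 6 level at least 1.36-fold. At day 6 the culture labelled Sumo2 knockdown had the higher value for all 16 measured partners (median 0.33), beside 53.7% of all measured genes.

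Of 8 measured readers of methylated CpG, 2 fell by 2-fold and adjusted p, 1 rose and 5 did not pass, against 9.12% and 14.3% of all measured genes that fell and rose (median -0.17). Zbtb4, a zinc finger reader, fell by 2.48 (SE 0.22, limma adjusted p = 0.000642) and Mbd2, a reader in the NuRD repressor complex, by 1.14 (limma adjusted p = 0.00239), while Mbd4, a glycosylase that reads methylated CpG and removes mismatched thymine as TDG does, rose by 1.22 (limma adjusted p = 0.00269). At day 6, 6 of the 8 were lower in the culture labelled Sumo2 knockdown, in which 53.7% of all measured genes were higher. Zbtb4 differed most (-0.56), and 0 of the 8 reached 1.5-fold.

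Of 18 measured TET and repair partners 7 rose and 3 fell by adjusted p, and 8 did not pass (median 0.49). Over all measured genes 29% rose and 17.8% fell by adjusted p. With the 2-fold rule added 5 partners rose and 3 fell, beside 14.3% and 9.12% of all measured genes. Those 5 became 3 after cyclic loess, without the Firefly culture and without the 10 day line. Wdr76, a reader of oxidised cytosine by binding studies, rose by 2.203 (SE 0.29, limma adjusted p = 0.00199), and the uracil glycosylase gene Ung by 1.43 (SE 0.46, limma adjusted p = 0.0429). Gadd45g, a stress gene tied to repair, fell by 1.91 (SE 0.19, limma adjusted p = 0.000805), and Cxxc4, which encodes an antagonist of TET2 that lies next to it in the genome, was at least 1.38-fold lower in the lines counted from the floor. Cxxc4 was below the floor in both lines and Apobec2 in both day 6 cultures. Both are in the 2-fold counts, and the passing of either is no support. At day 6 Ung read 8.17 in the culture labelled Sumo2 knockdown and 6.63, just below the floor, in the control. The difference was at least 2.89-fold counted from the floor. Ung was measured there only through the culture labelled Sumo2 knockdown, so its direction is no support. Of the other partners Wdr76 (0.83) and the repair polymerase gene Polb (0.71) were highest by difference.

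**Figure D4:**
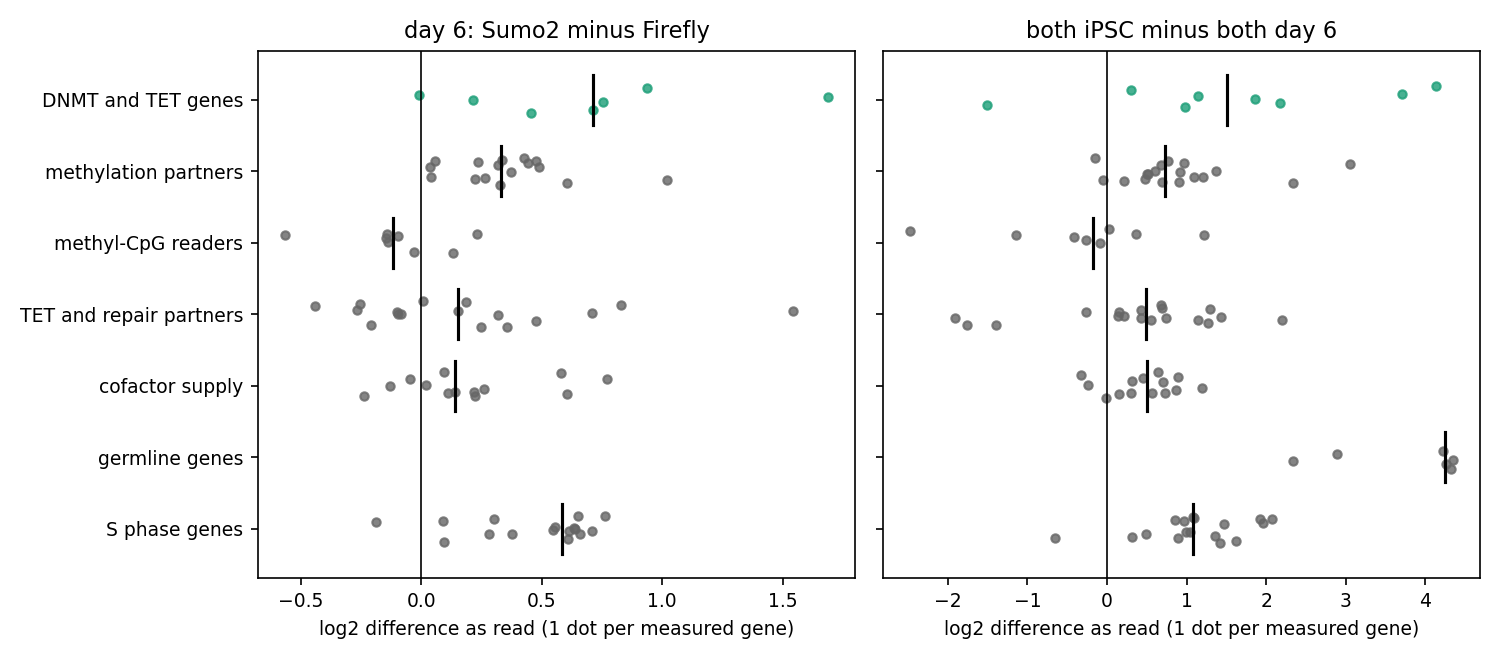
Log2 differences as read (x axes, 1 dot per measured gene, vertical jitter without meaning) for the members and 6 lists of related genes, with the list median as a bar; the left panel is the day 6 comparison, where 0 germline genes were measured, and the right panel both iPSC lines against both day 6 cultures. The members run from Tet3 at -1.51 to Dnmt3l at 4.13, and the methyl-CpG readers centre at -0.17. The 6 germline genes, from Stk31 at 2.33 to Ddx4 at 4.34, were measured only because they were high in the lines, which fixes their side of 0.

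S phase genes rose in the iPSC lines too: 14 of 17 by adjusted p, 10 by 2-fold, with Rrm1, a ribonucleotide reductase gene, down (-0.65) and a median of 1.08, close to Uhrf1 and Dnmt1. Gins1 among them was below the floor in both day 6 cultures and measured only through the lines, so its passing is no support. Of all measured genes 29% rose by adjusted p, and 14.3% by adjusted p and 2-fold. The part of S phase genes in the rise of the maintenance genes was not tested.

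Germline genes that promoter methylation is known to silence in somatic cells were taken as a downstream group. None of the 13 with a probe set of their own was at the floor at day 6, and the 6 that reached it in the lines were measured only because they were high there, so their passing is no support. Ddx4, a germ cell helicase gene, read 5.25 and 5.42 at day 6 and 9.94 and 9.42 in the 38 h and 10 day lines, at least 8.12-fold apart from the floor. Sohlh2 (at least 9.84-fold), Mael (5.96-fold) and Dazl (5.90-fold) were likewise read only in the lines, and all 3 were higher in the 10 day line. The other 7, such as Sycp1 and Brdt, stayed below the floor on all 4 arrays. DNA methylation itself was not measured.

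The genes closest in pattern to each member were those with the smallest root mean square difference between profiles centred over the 4 arrays, which all share the arrays and their scaling. The profiles were not scaled, so distances depend on the size of a change, and counts of near genes do not compare patterns between members. Tet1 had the widest span of the members above the floor on every array. Nearest to it were Gldc (0.273), Fam169a (0.316) and Rcor2 (0.317), and 0 genes came within 0.2. No neighbours are given for Dnmt3l, whose day 6 readings were below the floor. Dnmt3b had Kif21b (0.0697), Esco2 (0.084) and Fnbp1l (0.104), with 17. Tet2 was followed by Elavl3 (0.0579), Osgep (0.0652) and Usp28 (0.0721), and Tet3 by Pink1 (0.0259), Ammecr1 (0.0283) and Rb1 (0.048), with 154 and 108 within 0.2. The maintenance genes, with smaller spans, had more genes within that distance. Dnmt1 lay next to Cenpn (0.0176), Znrf2 (0.0349) and Mcm7 (0.0355), with 669 genes within 0.2, and Uhrf1 next to Sephs2 (0.0144), Gpr160 (0.032) and Grhl2 (0.0412), with 395. Dnmt3a spanned too little for the search. Of the neighbours, Gpr160 and Grhl2 were below the floor in both day 6 cultures, and Kif21b, Elavl3 and Fam169a in the Firefly culture, so their distances rest in part on readings below it.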

How the data were processed

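Total RNA of 4 cultures was measured on 1 array each. The deposited values are log2 expression that the authors made by RMA, and the submitters' processing notes name Affymetrix Expression Console. Its version and settings are not given in the sources used here. No log base stands in the table; base 2 was taken, as RMA writes it. RMA's quantile step hides changes of total RNA. Of 41345 probe sets, 23521 had 1 symbol, 1814 several and 16010 none listed; for 22180 genes the probe set with the highest mean was used.

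Both iPSC arrays were tested against both day 6 arrays with limma (version 3.58.1, under R 4.3.3), by lmFit and trended eBayes on 2 residual degrees of freedom, with p-values adjusted over all measured genes; the other comparisons are 1 array against 1 with a 2-fold size rule. The labels do not say whether the cultures were separate, so p-values measure only the spread between these arrays. The fit was checked on simulated data. Alternatives were cyclic loess, the median over probe sets, no filter or a 75th percentile filter, a 1.5-fold rule, no trend, adjusted p alone and each array left out. Named were all members, Sumo2, up to 4 genes per list by size of difference, and the 3 nearest patterns of members spanning at least 1. Rrm1, Sycp1, Brdt, Apobec2, Fbln2, Col1a1, Vim and the marker genes below the floor were named after their values were seen. The members and lists were chosen with earlier results of these data known. Promoters are RefSeq's on GRCm38.p6; 9 of 9 genes matched by symbol.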

Additional observations from a re-analysis of the deposited data

How the results depend on the processing

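The 2-fold count at day 6 (1 higher, 0 lower) held under cyclic loess, the median over probe sets, no filter and the 75th percentile filter, and a 1.5-fold rule gave 4 higher. From day 6 to iPSC, 5 higher and 1 lower became 4 and 1 after cyclic loess, 6 and 1 with a 1.5-fold rule or adjusted p alone, and 4 to 6 higher with 1 lower when 1 array was left out. Of the single values of members under these settings, 149 kept their direction and their side of the threshold, 6 crossed to the called side and 3, all Uhrf1, lost the call; 0 changed direction. Dnmt3l, Tet1, Dnmt3b, Tet2 and Tet3 ranged over 3.82 to 4.45, 2.86 to 4.55, 1.70 to 2.64, 1.63 to 2.09 and -1.78 to -1.23. Of the counts over the other lists, 487 stayed within 1.5 times and 59 did not. The 75th percentile filter left 7 members in this comparison, without Dnmt3a. No paired analysis was possible because each condition has 1 array. Without detection calls, the floor stands in for background.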

Other observations

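The enzymes depend on S-adenosylmethionine for methylation and on 2-oxoglutarate and ascorbate for oxidation, and a list of genes that supply these was followed. Of 14 measured cofactor genes 6 rose from day 6 to iPSC by adjusted p, beside 29% of all measured genes, 0 fell and 8 did not pass (median 0.51). By 2-fold 1 rose, beside 14.3% of all measured genes. Ahcy, which clears the methyltransferase inhibitor S-adenosylhomocysteine, rose by 1.19 (SE 0.21, limma adjusted p = 0.00558), the single member of that list past 2-fold; it was not called with the median over its probe sets and without the Firefly culture. The folate cycle genes Shmt1 (0.89, limma adjusted p = 0.0347) and Shmt2 (0.87, limma adjusted p = 0.00313) rose by less. The ascorbate transporter gene Slc23a1 read 6.19 and 6.57 at day 6, below the floor, and 7.09 and 7.12 in the 38 h and 10 day lines. It is 1 of the 6 that rose by adjusted p, but it was measured only through the lines, so its passing is no support. At day 6, the culture labelled Sumo2 knockdown had higher values for 10 of 13 measured cofactor genes, beside 53.7% of all measured genes. The median was 0.14, beside 0.02 over all measured genes. Shmt1 (0.77) and the methionine synthase gene Mtr (0.61) differed most.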
